A study of Mus musculus with 5 samples.

Results

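The positions described here are the m6A calls of mouse embryonic stem cells (mESCs) that overlapped no exon of the GENCODE M21 annotation. They were all pileup positions outside every GENCODE M21 exon of either strand in mm10, and a position is 1 genomic base and strand at which adenosines were called. There were 2785 such positions of 471848 in the METTL3 inhibition dataset and 1786 of 195787 in the Mettl5 dataset. Together they made 3320 of 512355 distinct positions, of which 1251 were measured in both datasets. By the place of the call, 1219 and 609 lay in an intron of a gene on the call strand, 1434 and 934 within 5 kb downstream of a gene end, and 132 and 243 in neither.

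The data came from nanopore direct RNA sequencing, which reads native RNA from the poly(A) tail and calls m6A from the current signal. The METTL3 inhibition dataset held 1 library of cells given 0.025% v/v DMSO and 1 library of cells given 30 µM STM2457, an inhibitor of the m6A methyltransferase METTL3, for 48 h. Both came from E14 mESCs that the labels call WT and that carried, per the methods, 2C::3xtbGFP-PEST, Zscan4::mCherry-PEST, a non-induced Dox::APOBEC1-YTH-HA-IRES-tdiRFP and a homozygous, non-induced FKBP12 F36V tag on Mettl3. The Mettl5 dataset held 1 untreated WT library and 1 library from each of 2 Mettl5-KO lines, #1 and #2, each a single clone. METTL5 is known as the 18S rRNA m6A methyltransferase. The methylation level (%) is the number of m6A calls over all valid calls at a position, and only the Mettl5-KO group had more than 1 library, so every test below compares libraries and not conditions. Per the methods the datasets used different cell lines, so conditions were compared within a dataset.

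Most m6A on mRNA is placed by the METTL3 complex in DRACH motifs, where D is any base but C, R a purine and H any base but G, and it is enriched in last exons. Reads outside annotated exons can come from retained introns, from transcripts that run past an annotated end, or from genes inside introns. They can also come from processed pseudogenes, which are intronless copies of mRNAs set back into the genome by reverse transcription. A read from a parent mRNA and a read from such a copy can be hard to tell apart, since the copy keeps most of the mRNA's sequence.

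Sequences of positions outside exons were read from the transcripts that they matched. No genome was used, so the order of called adenosines along a stretch was searched for in all GENCODE M21 transcripts. Of 107 stretches searched, in 49 loci, 38 stretches in 17 loci matched another transcript. In those, 1085 of 1086 called positions fell on an A, with 3 further A that were not called. The rule for a match, given with the processing below, largely required this fit, so it is no separate check. The 21 bases around the matched base are given below for 5 sites that fell after METTL3 inhibition and for 2 others. Each is from the named parent transcript and not from the locus itself. Of the 2 others, the Lpp site was tested against STM2457 and not called. The Tma7-ps site was a site of the Mettl5 dataset alone and was not tested against STM2457. Capitals mark the DRACH motif, or the called A where there was none. T stands for U.

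Gm9797, chr10:11609853 (+ strand), parent Timm8a1: tgtatatgGGACTgctttctc
Gm9797, chr10:11609905 (+ strand), parent Timm8a1: tgataggtGGACTgctttcta
Gm7334, chr17:50699682 (+ strand), parent Btg3: ttaatattGGACTtgagtatt
Gm15421 in Orc5, chr5:22528268 (− strand), parent Rpl22l1: ataaaattGGACTttatgaga
Npm3-ps1, chr6:85076830 (+ strand), parent Npm3: ggagggatGGACTgtggttcc
Morf4l1-ps1 in Lpp, chr16:24530512 (+ strand), parent Morf4l1: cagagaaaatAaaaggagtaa
Tma7-ps, chr1:171711295 (+ strand), parent Tma7: tgttcctcacAtctggggtga

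The first 5 read GGACT, a motif that METTL3 is known to favour, and the last 2 hold no DRACH motif around the called A. A sixth matched site that fell, in Hmgb1, reads GAACT and is not printed.

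The positions were not spread over the genome but sat in few loci, mostly just past the ends of genes. In the METTL3 inhibition dataset they made 30 intron, 89 downstream and 21 other loci, and the 5 largest held 57.4%, 45.7% and 60.6% of each class. In the Mettl5 dataset the numbers were 14, 18 and 23 loci, and the 5 largest held 77.5%, 70.2% and 37.0%. Of the 2785 positions, 2460 lay within 1000 bases past the end of a gene on the same strand, 208 within 1000 bases before a start and 117 in neither place. That gene was a pseudogene for 1911 positions (68.6%). In the Mettl5 dataset 1386 of 1786 lay past an end, and 889 (49.8%) had a pseudogene neighbour. The median distance to the nearest exon of either strand was 113 bases and 172 bases.

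The intron class was made of the same kind of positions: 1026 of its 1219 positions in the METTL3 inhibition dataset lay past the end of another gene of the same strand within 1000 bases. The intron of Hmgb1 and Mm2pr held 194 positions 5 to 977 bases past Gm8615. Lpp, a focal adhesion protein gene, held 192, of which 175 lay 3 to 672 bases past the pseudogene Morf4l1-ps1. Fgfr2, a fibroblast growth factor receptor gene, held 158 positions 3 to 548 bases past the end of Ctbp2. Ctbp2 codes for a transcriptional corepressor. Mipol1 held 80 positions 6 to 389 bases past Prps1l3, a gene related to phosphoribosyl pyrophosphate synthetase. Orc5, an origin recognition complex gene, held 46 positions 16 to 97 bases past Gm15421. Positions inside an intron therefore carried the host gene's name while lying next to another gene.

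In the downstream class the largest loci of the METTL3 inhibition dataset were Gm9797 with 177 positions, Gm7334 with 144, Npm3-ps1 with 133, Pabpn1 with 126 and Tma7-ps with 76. Pabpn1, the nuclear poly(A)-binding protein gene, is protein coding, and its positions reached 755 bases past the annotated end. Among Mettl5 libraries Cul4b, a scaffold subunit of cullin-RING ubiquitin ligases, led with 349 positions up to 1553 bases past its end. Pabpn1 followed with 107, Tma7-ps with 76, Gng5-ps with 71 and Gm10123 with 53. In the class other, the largest loci of the METTL3 inhibition dataset lay near Gm5801 (26 positions), Pitpna (20) and Ppp1r2-ps3 (17).

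At the larger loci, positions past the gene ends that passed the coverage minimum had a depth close to that of the neighbouring exons. Loci counted as larger by the number of such positions, so a locus where depth fell steeply could be left out. Where the exons were themselves near the minimum, the ratio could not fall far. The ratios therefore describe the loci kept and do not show how often depth fell past an end. Over the 22 loci with a pseudogene neighbour and at least 15 positions, the median valid coverage past the end was 97.6% of that of the neighbour's exonic positions in DMSO and 99.2% in STM2457 (median over loci). For the 8 loci with a protein-coding neighbour it was 97.2% (35.9 to 127) in DMSO and 108% (70 to 147) in STM2457. The lowest of these in DMSO lay past Psmd1 in Gm21972, with 28 against 78 calls. Past Pabpn1 the median coverage was 116 calls against 91 in its exons in DMSO and 72 against 49 in STM2457. The lowest of the pseudogene loci was Gm9797, with 67 against 150 calls in DMSO and 101 against 254 in STM2457. At the 73 loci with fewer positions the median was 71.9% in DMSO, down to 2.96% past Eef2, where 1 position passed the coverage minimum. From bulk RNA, fewer cells with a transcript and less of it per cell cannot be told apart. RefSeq places 1675 (60.1%) of the positions of the METTL3 inhibition dataset and 665 (37.2%) of the Mettl5 dataset in the span of a pseudogene, and another 1109 and 1066 in the span of another RefSeq gene. Outside every RefSeq span were 1 and 55. Nearly all positions outside GENCODE M21 exons thus lay in RefSeq gene spans. These spans include introns, so lying in a span does not place a position in a RefSeq exon. Whether the positions had been restricted to RefSeq exons was not tested.

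Genes known for retained introns and for intronic RNAs were looked up as lists. Of all 2779 genes with exonic positions in the METTL3 inhibition dataset, 116 (4.17%) had positions outside exons, and in the Mettl5 dataset 30 of 1113 (2.70%). Of 21 detained-intron genes, 10 had exonic positions in the METTL3 inhibition dataset and 1 had positions outside exons. This was Mat2a, the methionine adenosyltransferase gene, with 3 positions 1 to 3 bases past its end at a pooled level of 0.664% in DMSO and 0.395% in STM2457. Of 20 snoRNA host genes 14 had exonic positions, and 1, the elongation factor gene Eef2, had 1 position outside exons. Of 12 nuclear non-coding RNAs 1 had exonic positions and 0 had positions outside exons. In the Mettl5 dataset the 3 lists had 10, 14 and 0 genes with exonic positions, and 0 with positions outside exons. The cells were mESCs by their markers: 12 of 12 mESC genes were covered in the METTL3 inhibition dataset and 10 of 12 in the Mettl5 dataset, against 0 of 6 feeder fibroblast genes and 0 of 7 genes of differentiated derivatives in either.

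As a pooled level, methylation outside exons was low and near that of exonic adenosines outside DRACH. The pooled level (all m6A calls over all valid calls) was 1.06% in DMSO, 0.806% in STM2457, 1.42% in WT, 1.42% in Mettl5-KO #1 and 1.4% in Mettl5-KO #2. At exonic DRACH positions it was 7.27%, 1.90%, 4.87%, 5.22% and 5.12%. At exonic non-DRACH positions it was 0.928%, 0.807%, 1.4%, 1.27% and 1.26%. Positions outside exons were not split by motif here, and all exonic positions together stood at 1.45%, 0.897%, 1.71%, 1.59% and 1.57%. Positions outside exons lay below exonic DRACH in 5 of 5 libraries, with a mean difference of −3.66 percentage points (−6.22 to −1.10). They lay above exonic non-DRACH in 4 of 5 libraries, by 0.0898 percentage points on average. With 5 libraries an exact two-sided sign-flip permutation test cannot go below p = 0.0625, which the first difference reached (adjusted p = 0.1 over 8 contrasts). The second had p = 0.125 in the same exact test (adjusted p = 0.167). Of 1086 matched positions in the METTL3 inhibition dataset 84 were DRACH, so the first contrast set mixed motifs against DRACH alone. Its sign gives no result about place. As the median over loci the level outside exons was 0.613% in DMSO and 0.399% in STM2457, below the pooled values, which weight loci by depth.

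The class other had the highest pooled level in each library, but not the highest mean over positions in DMSO and in Mettl5-KO #2. Introns and downstream positions had pooled levels close to each other. Introns had pooled levels of 0.967%, 0.755%, 1.38%, 1.37% and 1.44% in DMSO, STM2457, WT and Mettl5-KO #1 and #2. Downstream positions had 1.03%, 0.744%, 1.31%, 1.28% and 1.31%. Other positions had 1.75%, 1.61%, 1.85%, 1.83% and 1.52%. Against exonic non-DRACH, the class other was higher in 5 of 5 libraries, by 0.580 percentage points (exact sign-flip permutation test, p = 0.0625, the smallest it can give). Introns differed by 0.0484 (p = 0.375) and downstream positions by 0.0011 percentage points (p = 1) in the same exact permutation test. Without positions within 100 bases of an exon, the class other turned lower than exonic non-DRACH, by −0.137 percentage points.

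**Figure D1:**
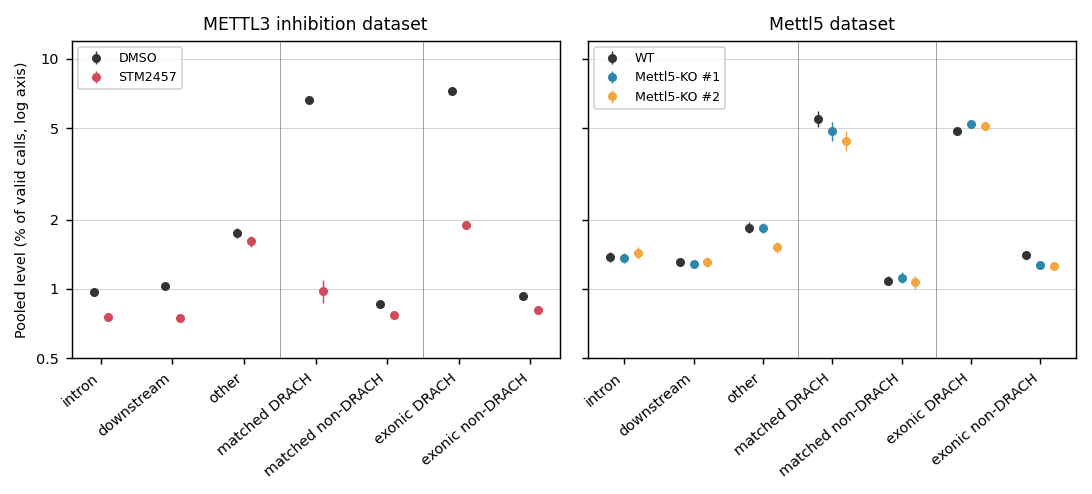
Pooled methylation level (%, log axis) of each class of positions in the 5 libraries, 1 point a library with its 95% exact binomial interval. In DMSO, introns at 0.967% and downstream positions at 1.03% stood near exonic non-DRACH at 0.928% and under exonic DRACH at 7.27%. Matched DRACH positions outside exons stood at 6.63%, from 35200 valid calls of which 7551 came from 1 position.

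Where the sequence was known, DRACH positions outside exons had higher levels than the rest. The 84 matched DRACH positions pooled to 6.63% for DMSO and 0.978% for STM2457, and the 1002 matched non-DRACH positions had 0.859% and 0.771%. Of the 35200 valid DRACH calls in DMSO, 7551 came from 1 position past Gm10123 and 3044 from 1 in Nudcd3. As the mean over positions, matched DRACH stood at 5.87% in DMSO, against 10.95% at exonic DRACH. For the Mettl5 libraries, 40 matched DRACH positions had 5.49%, 4.85% and 4.41% in WT and Mettl5-KO #1 and #2, and 507 non-DRACH positions 1.09%, 1.12% and 1.07%. Among the motifs, GGACT stood at 23.4% in DMSO and 3.0% in STM2457 (6 positions), TGACT at 14.2% and 1.08% (4 positions) and GAACT at 4.70% and 1.72% (5 positions). The 10 AAACA positions stood at 0.370% and 0.231%. Each of these levels rests on few positions, and 1 deep position weighs heavily. Without the GGACT of Nudcd3, at 15.1% from 3044 calls, the other 5 GGACT positions stood at 58.5% in DMSO and 11% in STM2457. Without the TGACT past Gm10123, at 14.5% from 7551 calls, the other 3 stood at 6.80% and 0.685%. Without the GAACT of Gm12338 the other 4 stood at 2.20% and 0.148%, and without the deepest AAACA the other 9 at 0.471% and 0.0730%.

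Sites, which are positions with more than 25 valid calls in every library of a dataset and 25% m6A or more in 1 of them or more, were few. In DMSO 26 positions outside exons (0.945% of those with more than 25 calls) reached 25%. The share was 14.2% for exonic DRACH, 0.147% for exonic non-DRACH and 1.35% for all exonic positions. In STM2457 4 positions (0.145%) did. In WT and Mettl5-KO #1 and #2 there were 8, 12 and 11. The METTL3 inhibition dataset had 27 sites, 15 downstream, 11 in introns and 1 other, in 16 loci. Of the 27, 25 lay 18 to 257 bases past a gene end and 2 before a gene start. The neighbour was a pseudogene for 13 and a protein-coding gene for 14. The highest position left out was in Orc5 at 24.4%, and the lowest kept was in Hmgb1 at 25%.

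Most of these sites were lower in the STM2457 library. Of 27, 23 (85.2%) were lower in STM2457 by Fisher's exact test (two-sided, adjusted p below 0.05 over all 6237 sites of the dataset) and 0 were higher. Over all sites, 91.4% were called lower and 0.321% higher, so the share outside exons was near that of the dataset. The mean level fell from 43.8% to 12.2% outside exons and from 56.2% to 16.2% at exonic sites. The median relative decrease was 80.2% outside exons and 79.9% at exonic sites. Sites were picked for 25% in 1 library or more, which 26 of the 27 reached in DMSO and 4 in STM2457. The pick therefore favoured a fall, at exonic sites as well, and the calls and sizes hold for picked sites only. Over all positions outside exons the pooled level was 1.06% in DMSO and 0.806% in STM2457. In matched stretches 6 of 8 sites were lower and in the rest 17 of 19.

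Next to Ctbp2, 5 sites in the Fgfr2 intron fell. On chr7, position 132987306 went from 59.0% in DMSO to 11.7% in STM2457 (adjusted p = 2.05e-06, Fisher's exact test). Position 132987332 went from 42.4% to 5.45%, and 132987374 from 42.9% to 9.43%. Positions 132987477 and 132987537 went from 37.1% to 12.7% and from 34.3% to 9.26%. All 5 intervals in DMSO lay above their STM2457 level. The positions past Ctbp2 pooled to 2.51% in DMSO and 1.18% in STM2457, against 2.59% and 1.28% in the exons of Ctbp2.

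Past Pabpn1, 3 sites on chr14 fell. Position 54898189, 20 bases past the annotated end, had m6A in 34 of 69 calls in DMSO (49.3%) and 3 of 50 in STM2457 (6%). Position 54898219 had 55 of 107 (51.4%) and 2 of 67 (2.99%). Position 54898303, 134 bases past the end, had 75 of 122 (61.5%) and 10 of 72 (13.9%). These sites were called lower (Fisher's exact test, adjusted p = 4.83e-07, 4.86e-12 and 1.67e-10). The annotated exons of Pabpn1 had a pooled level of 0.990% in DMSO, below the 2.41% past its end. In STM2457 the values were 1.02% and 0.919%.

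Past Slc7a6os, 3 sites on chr8 fell. Position 106200611 went from 48.1% to 14.9%, 106200602 from 36.4% to 4.55% and 106200523 from 26.3% to 5.56%. Past Pole4, a subunit gene of DNA polymerase epsilon, position 82618933 on chr6 went from 28.3% to 5% (Fisher's exact test, adjusted p = 0.00653). These genes are protein coding, and their sites lay 59 to 194 bases past the annotated ends.

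The most methylated site lay past Gm5801 on chr14. Position 56010435, 101 bases past the end, had m6A in 120 of 128 calls in DMSO (93.8%, 95% exact binomial interval 88.1 to 97.3) and 32 of 103 in STM2457 (31.1%, adjusted p = 9.25e-24, Fisher's exact test). It kept the highest level of the called sites in STM2457. Position 56010499 of the same locus went from 70.5% to 17.8%.

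The 5 GGACT sites were printed above because they fell, and their values follow. Position 22528268, past Gm15421 in Orc5, had 285 of 433 calls in DMSO (65.8%) and 37 of 302 in STM2457 (12.3%), the smallest adjusted p outside exons (5.63e-49, Fisher's exact test). The Gm9797 sites went from 33 of 85 (38.8%) to 7 of 116 (6.03%) and from 57 of 75 (76.0%) to 25 of 110 (22.7%). The Npm3-ps1 site went from 39.2% to 1.59% and the Gm7334 site from 31.4% to 1.75%. Their parents code for a mitochondrial import protein (Timm8a1), a ribosomal protein paralog (Rpl22l1), a nucleoplasmin (Npm3) and an antiproliferative factor (Btg3).

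Other intron sites fell too. Past Prps1l3 in Mipol1, position 57239999 on chr12 went from 26 of 88 (29.5%) to 2 of 49 (4.08%). In Pgm2l1, position 100265324 on chr7 went from 39 of 98 calls (39.8%) to 0 of 41, and position 100264629 from 32.6% to 3.70%. In Hmgb1, position 149154932 on chr5 went from 25% to 2.78% (Fisher's exact test, adjusted p = 0.0116).

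Methylation past the gene ends came as single high positions among many low ones, as the plot of levels along 4 genes shows.

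**Figure D2:**
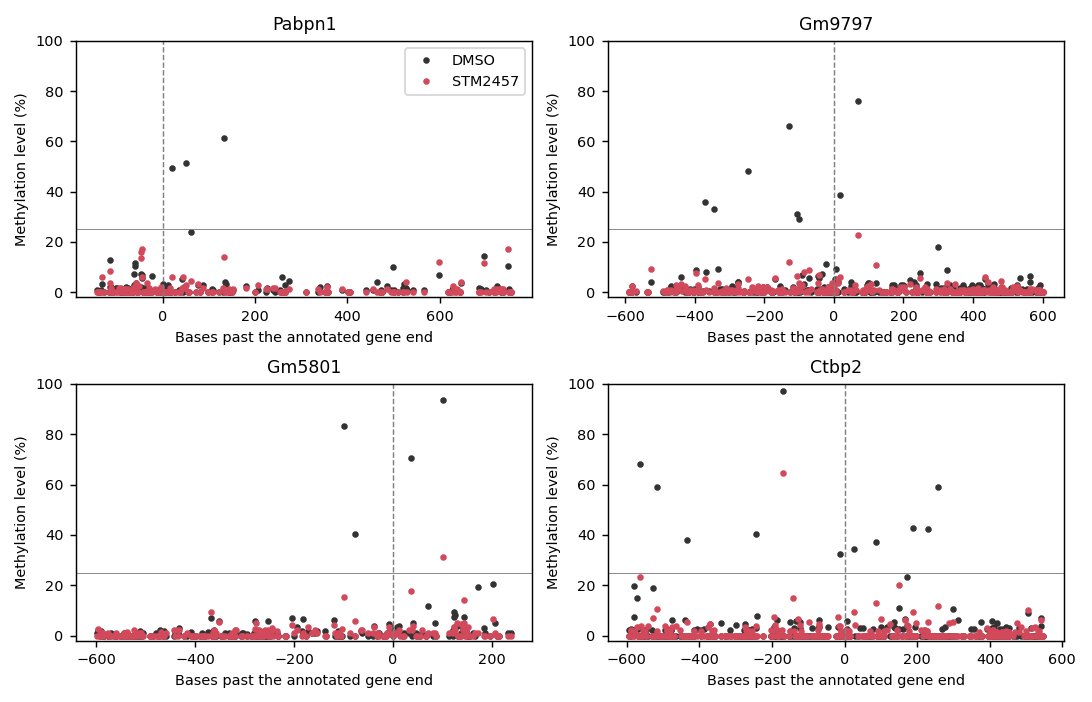
Methylation level (%) in DMSO and STM2457 against distance from the annotated end of Pabpn1, Gm9797, Gm5801 and Ctbp2 (bases, exonic positions before 0), 1 point a position, with a line at 25%. Single positions stand out in DMSO, such as 93.8% past Gm5801 and 76.0% past Gm9797, and are lower in STM2457, at 31.1% and 22.7%.

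The other 4 sites were not called. Position 24530512 in Lpp, which matched Morf4l1 outside DRACH, was at 24.8% in DMSO and 31% in STM2457 (adjusted p = 0.476, Fisher's exact test). Position 83664773 past Gipc1, a PDZ domain protein gene, was at 25% and 26.4% (Fisher's exact test, adjusted p = 0.855). Position 96895624 on chr9, 34 bases before the start of Gm10123, was at 45.9% and 47.2% (Fisher's exact test, adjusted p = 0.612), and was the second position from the 5′ end of its run. It had 1054 valid calls in DMSO beside 2183 failed ones, which are calls below the confidence filter, and 743 beside 1466 in STM2457. The position 30 bases on had 6513 valid calls in DMSO. Failed calls also outnumbered valid ones in DMSO at the Lpp site (171 against 105) and at the Gipc1 site (97 against 92). Position 96896286 past Gm10123 was at 28.3% and 20.6% (Fisher's exact test, adjusted p = 0.483). There 60 reads in DMSO had a valid call and 7323 showed another base.

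At that position most reads showed a base other than A. Positions where reads with another base outnumbered valid calls were 21 of 2785 (0.754%) in the METTL3 inhibition dataset and 3 of 1786 (0.168%) in the Mettl5 dataset. Of the 6 in matched stretches of the METTL3 inhibition dataset, the parent transcript had a base other than A in 6. At position 96896297 past Gm10123, whose parent Ppia codes for cyclophilin A, 31 reads had a valid call and 7804 another base in DMSO. In Map7, next to the ribosomal protein-like gene Rpl32l, position 20208474 had 33 and 7434. Over all positions outside exons the share of reads with another base was 7.33% in the DMSO library, but without these 21 positions it was 0.422%, and exons treated alike had 0.447%. STM2457 went from 7.12% to 0.411% in the same way, with exons at 0.403%. The 3 positions of the Mettl5 dataset took the share in WT from 1.46% to 0.551%, and exons had 0.892%. Failed calls, those below the confidence filter, were also more frequent outside exons, at 13% and 14.1% in DMSO and STM2457 against 8.78% and 8.73%. For the Mettl5 libraries they were at 11.5%, 12.3% and 11.2% against 9.10%, 8.21% and 8.29%. Whether reads of parent transcripts were aligned to these copies was not tested.

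Most parents of the matched stretches had few or no positions in the tables used here. Of 1086 matched positions of the METTL3 inhibition dataset, the parent position was in the tables for 139, and of 547 in the Mettl5 dataset for 19. Ppia, Sumo2, Cox7c, Gng5, Morf4l1 and Rpl22l1 had 0 exonic positions there in either dataset. Among the exceptions were Dppa5a with 19 of 19 matched positions, Tma7 with 60 of 60, Pou5f1 with 57 of 57 and Ost4 with 3 of 60. For Dppa5a, an RNA-binding protein gene of pluripotent cells, the median valid coverage in DMSO was 2524 at the parent and 1629 at the copy Gm6083. Between the clones this pair differed: parent and copy had 194 and 196 calls in WT, 178 and 211 in Mettl5-KO #1, and 56 and 354 in Mettl5-KO #2. For Tma7 the median in DMSO was 74 at the parent and 342 at Tma7-ps. For Pou5f1 it was 973 at the parent and 70 in the Cop1 intron.

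In the Mettl5 dataset 15 sites lay outside exons, 7 downstream, 7 in introns and 1 other, and 14 of them 13 to 696 bases past a gene end. The highest position left out was in Fgfr2 at 23.6%, and the lowest kept was past Gm10123 at 25.6%. In both clones at once, 0 were lower and 0 higher than WT (Fisher's exact test, adjusted p below 0.05 over 1911 sites). Over all sites, 0.262% were lower and 0% higher in both, so calls were rare in the whole dataset as well. At an unadjusted p below 0.05 in both clones there were 0. By a log2FC of 1.5 in both clones there were 0 in either direction, against 0.314% lower and 1.1% higher over all sites. The mean level was 29.2% in WT, 31.5% in Mettl5-KO #1 and 30.5% in Mettl5-KO #2. Both clones were below WT at 4 sites and above it at 6. Of the 15, 11 were also sites of the METTL3 inhibition dataset.

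**Figure D3:**
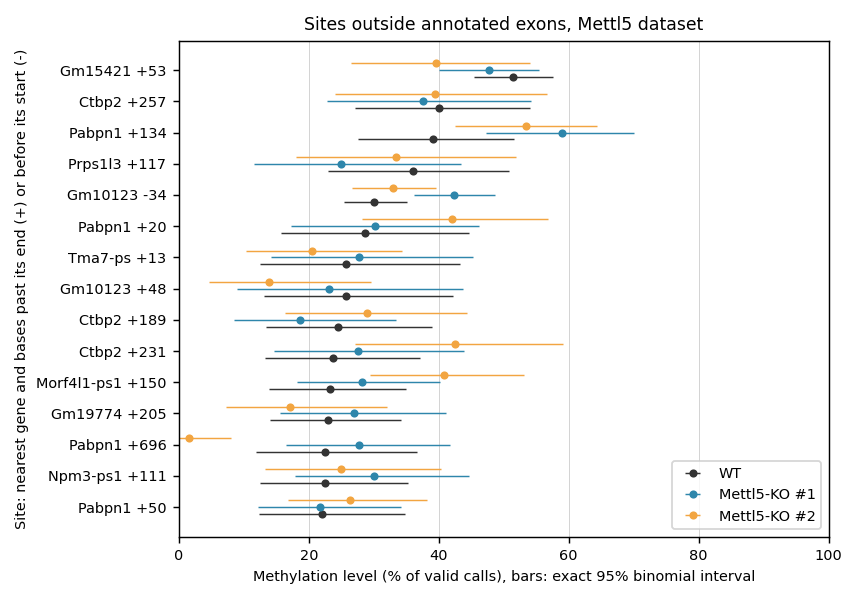
Methylation level (%) in WT and Mettl5-KO #1 and #2 of each of the 15 sites outside exons, with 95% exact binomial intervals. At position 54898865 past Pabpn1 Mettl5-KO #2 was at 1.49% against 22.4% in WT.

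Of the 23 sites lowered by STM2457, 9 were also sites of the Mettl5 dataset, and 0 of these were called in either clone. Position 22528268 in Orc5 was at 51.5% in WT, 47.6% in Mettl5-KO #1 and 39.6% in Mettl5-KO #2. Position 132987306 in Fgfr2 was at 40%, 37.5% and 39.5%. Position 54898303 past Pabpn1 was at 39.1%, 59.0% and 53.5%, above WT in both clones but not called (Mettl5-KO #1, Fisher's exact test, p = 0.0207, adjusted p = 0.50). The Npm3-ps1 site was at 22.4%, 30% and 25%, and the Mipol1 site at 36.0%, 25% and 33.3%. The Mipol1 site rested on 50, 32 and 33 calls, and its differences were not detectable at this depth.

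At 1 site a single clone was called. Position 54898865, 696 bases past Pabpn1, had 11 of 49 calls in WT (22.4%), 15 of 54 in Mettl5-KO #1 (27.8%) and 1 of 67 in Mettl5-KO #2 (1.49%, adjusted p = 0.0473, Fisher's exact test). The clones therefore stood on opposite sides of WT. Mettl5-KO #2 alone was called at 0.628% and Mettl5-KO #1 alone at 0.523% of all sites. In DMSO and STM2457 the position was at 14.6% and 11.5%. The call of Mettl5-KO #2 was lost with positions of exactly 25 reads added or with a level of 10% in place of 25%.

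The Mettl5 sites that the METTL3 inhibition dataset did not count were below 25% in DMSO and in STM2457. The Tma7-ps site was at 25.7%, 27.8% and 20.4% in WT and Mettl5-KO #1 and #2, and at 16% in DMSO and 20.1% in STM2457. Position 96896195 past Gm10123 was at 25.6%, 23.1% and 13.9%, and at 8.77% and 5.41%, with 39 valid calls against 2426 reads of another base in WT. The site in the Lpp intron, not lowered by STM2457, was at 23.2%, 28.2% and 40.8%.

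Depth past many of the gene ends, mostly of pseudogenes, was lower in Mettl5-KO #2, and at some loci the fall began inside the annotated exons. Over 13 loci with a pseudogene neighbour and at least 15 positions, coverage past the end was 95.4% of the neighbour's exons in WT (79.7 to 126), 91.7% in Mettl5-KO #1 (68.2 to 129) and 53.7% in Mettl5-KO #2 (15.6 to 94.4). Over the 5 loci with a protein-coding neighbour it was 98.2%, 97.8% and 96.1%, but 2 of these were low in Mettl5-KO #2 as well, Ctbp2 in Fgfr2 at 53.5% and Prps1l3 in Mipol1 at 48.3%. Past Gm10123 coverage dropped within 9 bases, from 1823 to 460 valid calls between 63 and 72 bases past the end in Mettl5-KO #2, while it went from 2578 to 2463 in WT and from 1548 to 1308 in Mettl5-KO #1. Among loci with 15 positions or more the ratio was lowest past Rps6-ps4 (15.6%), Gm15421 in Orc5 (21.8%), Gm10123 (22.6%) and Rpl32l in Map7 (28.5%). Among the 7 loci with fewer positions it was as low as 13.7%, past Gm15501. Past Cul4b it was 98.1% and past Pabpn1 114%. Over the last 50 exonic bases of Gm15421, coverage in Mettl5-KO #2 was already 70.5 calls, against a median of 239 over all its exonic positions. For Rps6-ps4 these values were 540 and 1165, and for Gm10123, where no fall preceded the end, 1773 and 1711. In WT they were 278 and 267.5 for Gm15421 and 892.5 and 872.5 for Rps6-ps4. The drop is from 1 library, so clone and library cannot be told apart, and its part in the levels of Mettl5-KO #2 was not tested.

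**Figure D4:**
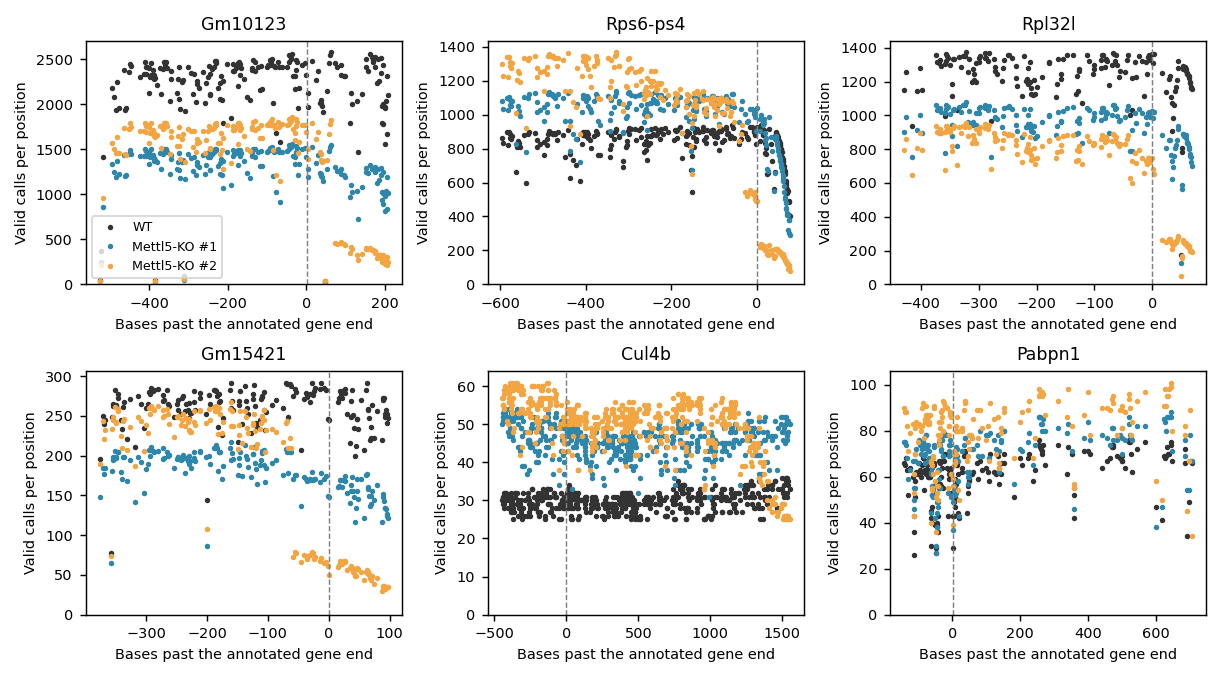
Valid calls per position along 6 loci in WT and Mettl5-KO #1 and #2 against distance from the annotated end of the gene named above each panel (bases). In Mettl5-KO #2 coverage past Gm10123 steps down from 1823 to 460 calls between 63 and 72 bases, which it does not in WT.

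The class other held a set of positions found in the Mettl5 dataset alone. On the minus strand of chromosome 6, between 47655007 and 47752908, 10 runs of 18 positions each had an identical spacing of called adenosines. They made 180 positions, 74.1% of the class in that dataset, and RefSeq names the first run Rn4.5s, a 4.5S RNA gene. The tables of the METTL3 inhibition dataset held 0 of these positions. Reads of the copies cannot be told apart here. Their pooled level was 1.62% in WT, 1.58% in Mettl5-KO #1 and 1.20% in Mettl5-KO #2. The highest position along the run in WT and in Mettl5-KO #1 was at 6.32% and 7.65% there and at 2.83% in Mettl5-KO #2, from 2593, 2549 and 2902 valid calls. In Mettl5-KO #2 another position was highest, at 3.53% from 3173 calls.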

How the data were processed

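Per the methods, demultiplexing used WarpDemuX, base and modification calling and the alignment to mm10 used dorado, and the pileup used modkit. The authors deposited counts of valid, m6A, unmodified, failed, deleted and different-base calls for every position and strand, with no normalization, and a percent, which is 100 times m6A calls over valid calls. Each table of a dataset holds the same positions, all with 25 valid calls or more. Whether the exon filter of the methods, on RefSeq exons, had been applied to these tables was not tested. The sum of valid calls was 71574467 for DMSO, 54051900 for STM2457, 22025887 for WT, and 17897440 and 19532075 for the Mettl5-KO lines.

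Positions were set against GENCODE M21 exons and genes and against RefSeq gene spans (GRCm38). Sites followed the thresholds of the methods, and no filter on RefSeq exons was applied here. Fisher's exact test (two-sided) compared libraries at each site, and p-values were adjusted by Benjamini-Hochberg over the sites of the dataset, exonic ones included. An exact sign-flip permutation test over libraries compared classes. The scripts ran in Python 3.11.15 with pandas 2.3.3, numpy 2.4.6, scipy 1.17.1 and matplotlib 3.10.9. Binomial 95% intervals were exact and give counting error alone, as neighbouring positions share reads. A match to a transcript was the best placement found and needed 95% of 15 to 30 called positions on an A. It also needed further A of at most 10% of the called positions, and at most 3 genes tied for best. The scripts were tested on simulated data. Genes were named by rule: the 5 loci with the most positions in a class, loci with a site, and list members. The members and lists were chosen with earlier results of these data known. The matching of sequences, the neighbouring genes, the steps in depth and the values without the deepest or outnumbered positions were added after seeing the data. Alternatives changed coverage, level, exon set, distance, failed calls and clones. The values of 1 locus are not reported here.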

Additional observations from a re-analysis of the deposited data

How the results depend on the processing

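Each of the 27 STM2457 sites that could be recomputed kept its direction and call under every alternative, while the number of sites moved with the thresholds. Of the 27, 22 were still sites with failed calls in the denominator. With at least 50 reads there were 14 sites, 11 called lower. At a level of 10% there were 71, 42 lower and 1 higher, and at 50% there were 7, all 7 lower. More than 100 bases from an exon there were 14, 12 lower, and with exons of protein-coding transcripts only 84, 65 lower and 2 higher. The Mettl5 dataset had 5 sites with at least 50 reads, 58 at 10%, 2 at 50%, 7 with failed calls in the denominator, 25 with antisense exons allowed, 9 more than 100 bases from an exon and 9 outside matched stretches (added after seeing the data). In none of these was a site called in both clones. Without either clone there were 13 sites. The pooled level outside exons moved in DMSO to 1.04% with at least 50 reads, 0.920% with failed calls, 0.613% as the median over loci, 1.10% beyond 100 bases and 0.958% outside matched stretches. In STM2457 it moved to 0.692% with failed calls, 0.399% over loci and 0.871% beyond 100 bases. In WT it moved to 1.26% with failed calls and 1.56% beyond 100 bases, and in Mettl5-KO #1 to 1.25%, 1.54% and, over loci, 1.35%. In Mettl5-KO #2 it moved to 1.36% with at least 50 reads, 1.25% with failed calls, 1.25% over loci, 1.35% beyond 100 bases and 1.46% without the 4.5S RNA copies. Beyond 100 bases the class other went to −0.137 percentage points against exonic non-DRACH. With failed calls position 132987306 in Fgfr2 went to 0.833 percentage points above WT in Mettl5-KO #2. The cause was not tested. No paired analysis was possible because the groups share no paired libraries and each but Mettl5-KO has 1. Positions with 25 to 50 calls limit the precision, and positions below 25 calls were not measured.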
